A study of Mus musculus with 6 samples.

Results

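The insulin-like growth factor (IGF) genes described here are the 10 genes *Igf1*, *Igf2*, *Igf1r*, *Igf2r*, *Igfbp2*, *Igfbp3*, *Igfbp4*, *Igfbp5*, *Igfbp6* and *Igfbp7*. They were chosen by name as the ligands, receptors and binding proteins of the family, and all 10 were found among 23352 gene symbols. The omentum of WT C57BL/6 mice, an adipose tissue that holds lymphoid aggregates called milky spots, was the source of 6 sorted stromal populations, P1 to P6, each profiled by RNA-seq. Cells were released with Liberase and DNase I and were sorted by surface markers and by aldehyde dehydrogenase (ALDH) activity. All 6 were gated as CD45-. CD140a+CD105+ cells were split by ALDH activity into P1 (high), P2 (intermediate) and P3 (low), and CD140a+CD105- cells into P4 (intermediate) and P5 (low). P6 held the cells that were low for CD140a and had ALDH activity. Neither the age and sex of the mice nor how many were pooled per library is given in the sources used here. Each population had 1 library, so the data hold no replicates, and no test between populations was possible.

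IGF1 and IGF2 are secreted growth factors that signal through the receptor tyrosine kinase IGF1R, whereas IGF2R removes IGF2 from the cell surface without kinase signaling. IGF-binding proteins are secreted proteins that hold the ligands outside the cell, lengthen their life and limit or deliver them to the receptor, and secreted proteases release the ligand by cutting them. IGFBP7 is classed with the family but binds IGFs weakly. Stromal fibroblasts are a well-known local source of IGF1 and of binding proteins, which act beside IGF1 from the liver.

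Values are FPKM as deposited, that is, read fragments scaled to the exon length of the gene and to the mapped reads of the library, so that genes can be compared within a library as far as the annotated lengths hold. Depth was estimated from the steps of low FPKM values as 36.9 M reads in P6 and 53.2 to 61.6 M reads in P1 to P5. Ratios are given with 95% intervals from the estimated reads, and these cover counting error only, not the spread between mice or sorts. The genes of the surface markers followed the gates. *Pdgfra*, which encodes CD140a, was at 117 to 154 FPKM in P1 to P5 and at 5.36 in P6, and *Eng*, which encodes CD105, was at 42.6 to 52.4 in P1 to P3 and at 0.231 to 0.728 in P4 to P6. *Ptprc*, which encodes CD45, did not exceed 0.755 FPKM. *Aldh1a2*, which encodes an enzyme of retinoic acid synthesis, was at 469, 78.8, 134, 285, 145 and 209 FPKM in P1 to P6. It was highest in P1 and, against the order of ALDH activity in the gates, lower in P2 than in P3. These are bulk RNA values, so fewer cells of a type and less RNA per cell cannot be told apart.

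Of the 10 genes, 9 reached 1 FPKM in at least 1 library and 8 did so in all 6. *Igf2* stayed under 1 FPKM everywhere, and *Igfbp2* did so only in P1. *Igf1* and *Igfbp7* were higher in all CD105+ populations than in the others. *Igfbp5* and *Igfbp6* were lower in all CD105+ populations than in the others and highest in P6. *Igf2*, *Igf1r*, *Igfbp2*, *Igfbp3* and *Igfbp4* also had their highest level in P6. For *Igf1r* and *Igfbp4* the lead of P6 was small (1.02-fold and 1.05-fold). It was lost when libraries were scaled by the median of ratios or by *Gapdh*. *Igf1r*, *Igf2r* and *Igfbp4* stayed within 1.59-fold across all populations. The SD of log2(FPKM + 0.1) over the 6 libraries ran from 0.09 for *Igfbp4* to 2.98 for *Igfbp2*. For 8 of the 10 genes it was above 0.26, the median of the 12904 genes that reached 1 FPKM in any library. These 8 include *Igf2*, which is not among the 12904 genes and whose spread rests on few reads. They also include *Igf1r*, which was close to the median at 0.27.

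**Figure D1:**
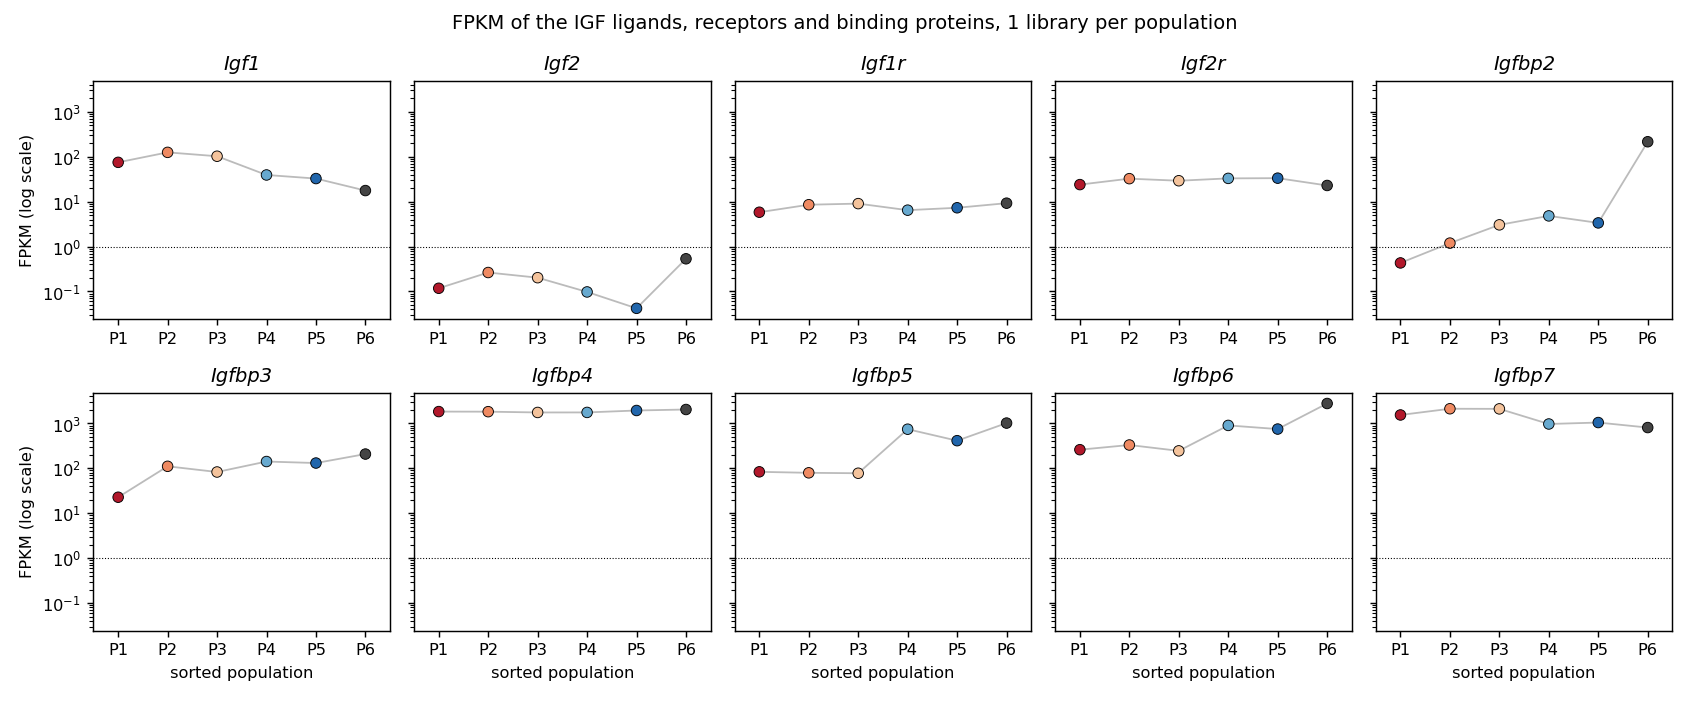
FPKM on a logarithmic axis of each of the 10 genes in P1 to P6, with 1 point per library and no error bars because each population had 1 library; grey lines only join the points. The dotted line marks 1 FPKM, which *Igf2* does not reach, whereas *Igfbp2* is at 0.432 in P1 and 216 in P6 and *Igfbp4* stays between 1757 and 2046.

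*Igf1*, the ligand of IGF1R, was at 75.0, 125, 103, 39.3, 32.7 and 17.7 FPKM in P1 to P6. All CD105+ populations were above all others, with P2 at the top and P6 at the bottom. At intermediate ALDH activity *Igf1* was 3.19 times as high in P2 as in P4, and at low activity it was 3.14 times as high in P3 as in P5 (95% interval 3.0 to 3.29). In P1, which has no CD105- counterpart with high ALDH activity, it was 0.60 times the level of P2 (0.579 to 0.621). No pair of populations next to each other in the order of *Igf1* had an interval of the ratio that included 1. *Igf1* ranked 478 among all genes of P2 and 3945 among those of P6.

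*Igf2*, the fetal growth factor of the family, was at 0.118, 0.264, 0.203, 0.0977, 0.0421 and 0.534 FPKM in P1 to P6. The highest value, in P6, stood for 45.4 estimated reads and the lowest, in P5, for 5.98. Among P1 to P5 the neighbours in the order of levels could not be separated at this depth, since each interval of their ratio included 1. Populations further apart in the order could be. The ratio was 2.71 for P2 over P4 (1.41 to 5.56), 4.81 for P3 over P5 (1.93 to 14.0) and 2.24 for P2 over P1 (1.21 to 4.58). *H19*, the imprinted noncoding RNA next to *Igf2* on chromosome 7, was at 1.04 FPKM in P1 and at 0.0536 to 0.536 in the other populations. The RNAs of the insulin genes stayed near 0, with *Ins1* listed at 0 in every library and *Ins2* at 0.206 FPKM at most.

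*Igf1r*, the signaling receptor, was at 5.81, 8.54, 9.04, 6.46, 7.30 and 9.25 FPKM in P1 to P6. The levels lay within 1.59-fold, and P6 and P3, at the top of the order, did not differ beyond counting error (ratio 1.02, 0.982 to 1.07). *Igf2r*, the clearance receptor that also carries lysosomal enzymes, was at 24.0, 32.5, 29.2, 33.0, 33.3 and 22.9 FPKM in P1 to P6. P5 and P4 did not differ beyond counting error, nor did P4 and P2, and P1 and P6 were lowest. *Airn*, a noncoding RNA that is antisense to *Igf2r*, was at 5.96 to 14.3 FPKM. How the reads were counted by strand was not stated, so reads shared by the overlapping genes cannot be told apart. *Insr*, the insulin receptor, which can pair with IGF1R, was at 4.53 to 8.06 FPKM, and *Igf1r* was 1.02 to 1.28 times as high as *Insr* in the same library.

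*Igfbp4*, which holds IGFs until it is cut by pappalysin, was at 1838, 1830, 1757, 1761, 1944 and 2046 FPKM in P1 to P6. It ranked between 8 and 13 among all genes of each library, and its highest and lowest levels were 1.16-fold apart, with P1 and P2, and P4 and P3, not separated by counting error. *Igfbp7*, the weak IGF binder found in basement membranes, was at 1545, 2126, 2113, 973, 1048 and 810 FPKM in P1 to P6. It was higher in the CD105+ populations and ranked 5 in both P2 and P3, which did not differ beyond counting error (ratio 1.01, 0.998 to 1.01). The ratio of P2 to P4 was 2.18, and that of P3 to P5 was 2.02 (2.0 to 2.04), close to the 2-fold threshold used for counts.

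*Igfbp3*, the main carrier of IGFs in blood, was at 22.8, 111, 83.0, 142, 131 and 208 FPKM in P1 to P6. P1 was lowest, at 0.205 times the level of P2 (0.196 to 0.214) and 0.160 times that of P4 (0.153 to 0.168). P3, the next population above P1, was 3.64 times as high as P1 (3.48 to 3.82), and P6 was highest. *Igfbp2*, a binding protein with an integrin-binding motif, was at 0.432, 1.19, 3.04, 4.82, 3.36 and 216 FPKM in P1 to P6. P6 was 44.7 times as high as P4, the next population (39.6 to 50.7), and 499 times as high as P1 (327 to 791), where the level stood for 21.9 estimated reads.

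*Igfbp5*, a binding protein that associates with extracellular matrix, was at 83.8, 79.6, 77.9, 745, 414 and 1020 FPKM in P1 to P6. All CD105- populations and P6 were above all CD105+ populations, which lay close to each other. The ratio was 9.35 for P4 over P2 (9.24 to 9.47) and 5.31 for P5 over P3 (5.24 to 5.38). *Igfbp6*, which binds IGF2 in preference to IGF1, was at 261, 331, 245, 905, 750 and 2783 FPKM in P1 to P6. The groups were split as for *Igfbp5*, with ratios of 2.73 for P4 over P2 (2.68 to 2.78) and 3.06 for P5 over P3 (3.0 to 3.12). P6 was 3.08 times as high as P4 (3.04 to 3.11), and *Igfbp6* ranked 4 among all genes of P6.

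The promoters of the 4 binding proteins that were past 2-fold between P2 and P4 are shown because these genes moved together or in opposite directions, and they were chosen after their values were seen. Each is the stretch before a RefSeq start of the gene in GRCm38.p6, on the strand of the gene. *Igfbp2* has another RefSeq start further along the gene, whose stretch is not shown. Capitals mark matches on either strand to 5 short motifs. The TATA box was searched as TATAAA. The GC box was searched as GGGCGG. Nuclear receptors were represented by the hexamer AGGTCA. TEAD factors were represented by GGAATG. WT1 and EGR factors were represented by GCGNGGGCG, which may overlap a GC box. The E-box, searched as CANNTG, was counted but stays in lower case.
Igfbp2, chr1:72824230-72824479, plus strand: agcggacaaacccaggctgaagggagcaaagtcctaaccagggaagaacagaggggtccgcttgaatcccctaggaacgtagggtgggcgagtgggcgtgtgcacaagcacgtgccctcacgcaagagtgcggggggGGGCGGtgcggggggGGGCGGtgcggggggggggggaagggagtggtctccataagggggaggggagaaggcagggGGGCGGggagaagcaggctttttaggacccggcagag
Igfbp5, chr1:72874885-72875115, minus strand: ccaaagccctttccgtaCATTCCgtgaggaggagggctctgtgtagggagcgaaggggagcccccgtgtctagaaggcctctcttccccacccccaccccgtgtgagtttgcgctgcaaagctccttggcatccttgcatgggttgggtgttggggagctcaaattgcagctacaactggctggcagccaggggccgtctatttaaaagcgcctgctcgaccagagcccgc
Igfbp6, chr15:102143936-102144185, plus strand: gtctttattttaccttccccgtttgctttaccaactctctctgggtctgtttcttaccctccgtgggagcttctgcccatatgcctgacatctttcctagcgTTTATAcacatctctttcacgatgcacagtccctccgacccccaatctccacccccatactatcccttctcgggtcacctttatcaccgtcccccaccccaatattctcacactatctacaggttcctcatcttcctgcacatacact
Igfbp7, chr5:77408046-77408295, minus strand: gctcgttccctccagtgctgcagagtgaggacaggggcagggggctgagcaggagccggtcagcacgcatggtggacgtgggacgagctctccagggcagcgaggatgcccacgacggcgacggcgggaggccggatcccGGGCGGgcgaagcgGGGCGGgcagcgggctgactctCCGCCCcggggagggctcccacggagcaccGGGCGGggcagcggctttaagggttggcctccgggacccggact

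All 10 genes had a RefSeq promoter entry. The 19 bases nearest the start of *Igfbp5* lie in an exon of GENCODE M21 and are not shown, and the 250 bases before the RefSeq start of *Igf1* lie wholly in such an exon, so none are printed. Over 250 bases the *Igfbp2* stretch held 3 GC boxes and 1 E-box, and that of *Igfbp7* held 4 GC boxes and no E-box. The stretch before the other start of *Igfbp2* held 0 GC boxes and 1 E-box, with a GC content of 56.4%. A GC box was present in 32.7% of the 32851 promoter stretches of the table. The *Igfbp6* stretch held 1 match to the TATA box letters, against 12.4% of all promoters, and 1 E-box, against 66.2%. That TATA match is on the opposite strand, reads TTTATA as printed, and lies near the middle of the stretch. The *Igfbp6* stretch ends at 102144185, whereas the gene begins at 102144362 in GENCODE M21. The bases just before that GENCODE start are thus not in the stretch. The *Igfbp5* stretch held 1 TEAD match, against 12.6% of all promoters, and 1 E-box. The AGGTCA hexamer, in 14.0% of all promoters, and the WT1 and EGR motif, in 4.70%, had no match in these 4 stretches. The GC content was 67.2% for *Igfbp2*, 58.8% for *Igfbp5*, 49.6% for *Igfbp6* and 74.0% for *Igfbp7*, against a median of 52.4%. A match describes the letters only and is not shown to be a bound site.

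*Igfbp2* and *Igfbp5* are neighbours on chromosome 1 of GRCm38, at 72824503 to 72852474 on the plus strand and 72857932 to 72874884 on the minus strand. Their ends face each other across 5457 bases. Both were highest in P6, but P4 was 9.35 times as high as P2 for *Igfbp5* and 4.04 times (3.08 to 5.31) for *Igfbp2*, on levels far apart. *Igfbp3* on chromosome 11 lies 3539 bases from *Igfbp1*, a liver binding protein, which was listed at 0 in every library.

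The sum of the 6 binding proteins was 3751, 4479, 4280, 4530, 4291 and 7082 FPKM in P1 to P6. P6 stood above the others, and its sum was 1.84% of the FPKM of its library, against 0.920% in P1 and 1.09 to 1.12% in P2 to P5. *Igfbp7* made up 41.2%, 47.5% and 49.4% of the sum in P1 to P3, 21.5% and 24.4% in P4 and P5, and 11.4% in P6. *Igfbp6* took the largest share in P6, with 39.3%, against 5.73 to 7.40% in the CD105+ populations and 17.5 to 20.0% in P4 and P5. *Igfbp5* made up 1.78 to 2.23% in P1 to P3, 16.4% and 9.64% in P4 and P5, and 14.4% in P6. The share of *Igfbp4* ran from 28.9% in P6 to 49.0% in P1. The sum of the binding proteins was 35.8 times the level of *Igf1* in P2, 41.7 times in P3 and 50.0 times in P1, but 115 and 131 times in P4 and P5 and 401 times in P6. These are ratios of RNA levels and say nothing of bound and free ligand.

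**Figure D2:**
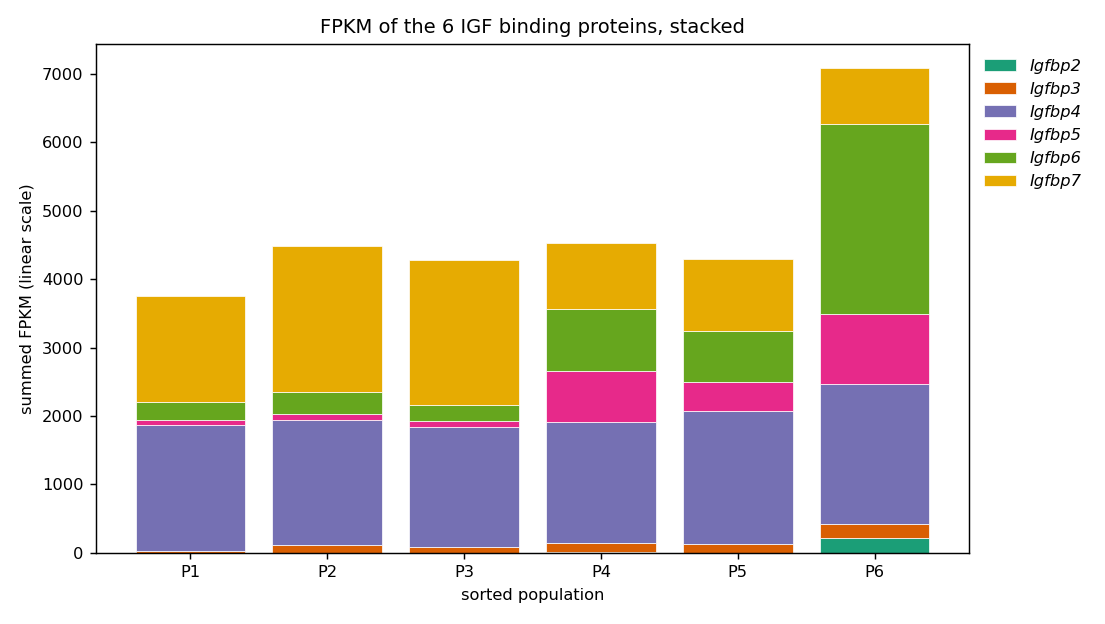
Stacked FPKM on a linear axis from 0 of the 6 binding proteins in each population, with 1 library each. The sum is 3751 to 4530 FPKM in P1 to P5 and 7082 in P6, where *Igfbp6* alone reaches 2783, and *Igfbp7* is the largest part in P2 and P3.

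Pairs of populations that differ in 1 sorted property were then compared. A gene was counted when it reached 1 FPKM in a library of the pair and its ratio after adding 0.1 FPKM was at least 2-fold, and the share of all genes counted in the same way is given as background. Of the 10 genes, 9 could be counted in each comparison, and *Igf2* could not. For ALDH activity within CD105+ cells, none was higher and 2 were lower in P1 than in P2, namely *Igfbp2* and *Igfbp3*, against 0.957% and 4.23% of all genes. Between P2 and P3, none was higher and *Igfbp2* was lower in P2, against 1.09% and 2.56% of all genes. Within CD105- cells, none was higher or lower between P4 and P5, against 3.93% and 1.44% of all genes. *Igfbp2* was counted in both pairs of CD105+ cells on levels of 3.04 FPKM at most, and neither call was kept with a pseudocount of 1 or a minimum of 5 FPKM, nor that of P1 and P2 with quantile scaling.

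Between CD105+ and CD105- cells more of the genes were past 2-fold. At intermediate ALDH activity *Igf1* and *Igfbp7* were higher in P2 than in P4, against 4.90% of all genes, and *Igfbp2*, *Igfbp5* and *Igfbp6* were lower, against 7.63%. At low activity *Igf1* and *Igfbp7* were higher in P3 than in P5, against 7.33% of all genes, and *Igfbp5* and *Igfbp6* were lower, against 6.29%. *Igfbp2* was at 3.04 FPKM in P3 and 3.36 in P5, a ratio of 0.905 with an interval that includes 1 (0.734 to 1.11). The comparisons at intermediate and low activity use different libraries but split cells by the same marker, so they are not replicates. The share of all genes counted in the same direction in both was not computed. The IGF genes counted in the same direction in both were *Igf1*, *Igfbp5*, *Igfbp6* and *Igfbp7*, and no background stands beside this overlap. For 2 of these a call was lost with another scaling, namely *Igfbp6* between P2 and P4 when libraries were divided by *Gapdh* (log2 ratio -0.98) and *Igfbp7* between P3 and P5 with quantile scaling (0.98).

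The median log2 ratio over the 9 genes was -0.46 for P1 over P2 (all genes, -0.05), 0.06 for P2 over P3 (-0.03) and 0.11 for P4 over P5 (-0.04). For CD105 it was -0.02 for P2 over P4 (-0.08) and -0.15 for P3 over P5 (-0.09). The single log2 ratios ran from -3.22 to 1.67 for P2 over P4 and from -2.41 to 1.65 for P3 over P5.

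**Figure D3:**
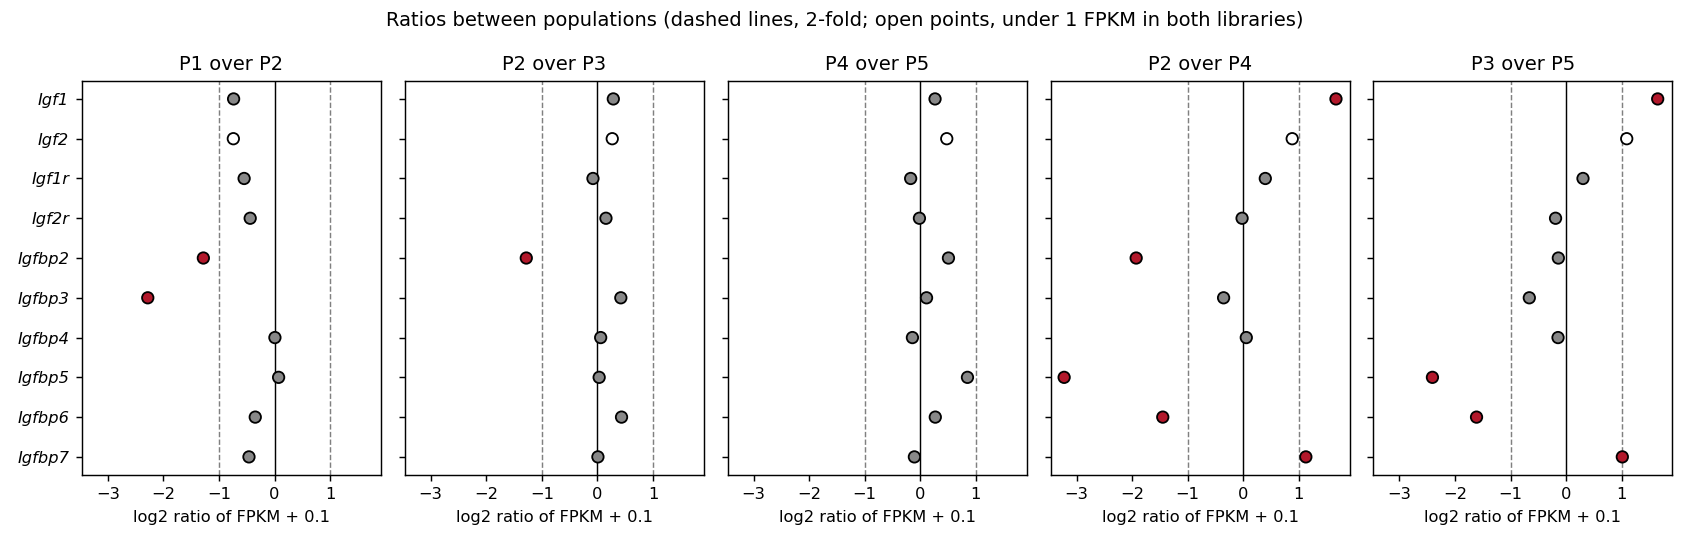
Log2 ratio of FPKM + 0.1 of each of the 10 genes in 5 pairs of populations, with 1 library per population, red points at or past 2-fold (dashed lines) and open points where both libraries are under 1 FPKM. *Igf1* and *Igfbp7* lie to the right and *Igfbp5* and *Igfbp6* to the left in both comparisons of CD105+ with CD105- cells, whereas the pairs that differ in ALDH activity have at most 2 red points.

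P1 and P6 were also set against every other population. None of the genes was at least 2-fold higher in P1 than in each of the other 5 populations, against 0.395% of all genes, and *Igfbp2* and *Igfbp3* were at least 2-fold lower, against 1.82%. In P6, *Igfbp2* and *Igfbp6* were at least 2-fold higher than in each other population, against 6.25% of all genes, and none was lower, against 4.63%. *Igfbp5* was 1.37 times as high in P6 as in P4 (1.36 to 1.38) and 2.47 times as high as in P5, so it was counted only when P4 was left out. *Igf1* was lowest in P6, at 0.541 times the level of P5 (0.497 to 0.587), which misses the 2-fold threshold, and was counted when P5 was left out.

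Genes of other cell types were set beside *Igfbp2*, *Igfbp5* and *Igfbp6*. A list of 8 genes of mesothelial cells, which line the peritoneum, summed to 72.7 to 147 FPKM in P1 to P3. The sum was 919 and 743 in P4 and P5 and 2898 in P6. All 8 were highest in P6, as were all 8 of the acinar genes below. The share of all genes that were highest in P6 was not computed. *Upk3b* was at 6.78 to 22.7 FPKM in the CD105+ populations, at 383 and 289 in P4 and P5 and at 1140 in P6. *Msln* was at 171 FPKM in P6 and at 0.127 to 6.86 elsewhere. *Wt1* varied less, at 50.3, 79.2 and 106 FPKM in P1 to P3, most of the sum there. It was at 149, 197 and 211 in P4 to P6. Of 8 pancreatic acinar genes, which encode digestive enzymes, the sum was 3.26, 191, 19.3, 1023, 124 and 1514 FPKM in P1 to P6. The acinar sum was higher in P2 than in P3 and in P4 than in P5. *Igfbp6* was higher there too, though by much smaller ratios (1.35 and 1.21). The acinar sum was lower in P1 than in P3, whereas *Igfbp6* was at 261 FPKM in P1 and 245 in P3. The mesothelial sum was 95.2 FPKM in P2 and 147 in P3, of which *Wt1* made up 79.2 and 106. *Igfbp5* was near even between P2 and P3 (1.02) and higher in P4 than in P5 (1.80), and *Igfbp2* was lower in P2 than in P3 (0.392) and higher in P4 than in P5 (1.43). Among 8 adipocyte genes, 6 were highest in P6, where *Cfd* was at 114 FPKM and *Adipoq* at 14.7, and *Lep* was at 0.0162 at most. *Fabp4*, the most abundant gene of the list, was at 349 FPKM in P5 and 179 in P6. The sum of the list was 351 FPKM in P5 and 342 in P6. The 8 endothelial genes summed to 1.75, 2.16, 3.49, 18.8, 11.8 and 112 FPKM in P1 to P6, and 6 were highest in P6. Of these 8 genes, only *Kdr* (46.9 FPKM) and *Esam* (62 FPKM) reached 1 FPKM in P6, whereas *Pecam1* was at 0.992 and *Cldn5* at 0.111 there. The part of these cell types in the levels of the binding proteins was not tested.

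**Figure D4:**
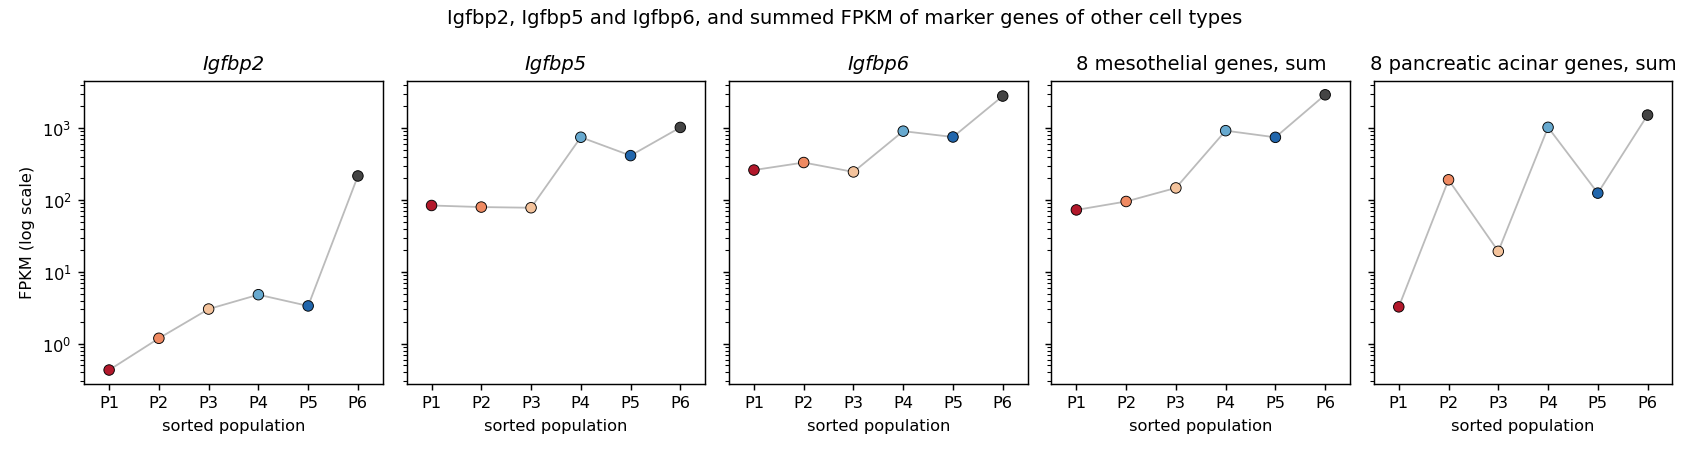
FPKM on a logarithmic axis of *Igfbp2*, *Igfbp5* and *Igfbp6* in P1 to P6, beside the summed FPKM of 8 mesothelial and 8 pancreatic acinar genes, with 1 library per point. The mesothelial sum is 72.7 to 147 in P1 to P3, 743 to 919 in P4 and P5 and 2898 in P6, the acinar sum is 1023 in P4 and 1514 in P6, and the 3 binding proteins are highest in P6.

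The fibroblast, mural and leukocyte lists showed other orders. *Col1a1*, a fibrillar collagen of fibroblasts, was at 1735 FPKM in P6 and at 670 to 1618 in P1 to P5, whereas *Dpt*, a matrix protein of fibroblasts, was at 1634 FPKM in P1 and at 8.70 in P6. Mural genes, of pericytes and smooth muscle, summed to 62.9 to 245 FPKM in P1 to P3, 183 to 294 in P4 and P5 and 95.5 in P6. Myeloid genes summed to 12.5 to 46.4 FPKM and lymphoid genes to 1.2 to 5.21 FPKM over all libraries. Of 5 pancreatic islet genes none reached 1 FPKM, and *Ins1* and *Iapp* were listed at 0 throughout.

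The rest of the pathway was read from 31 genes in 5 lists, of which 24 reached 1 FPKM in any library and 16 in all. Secreted regulators of the binding proteins are given first. *Pappa*, the protease that cuts IGFBP4, was at 2.66, 14.3, 12.8, 1.96, 3.44 and 2.25 FPKM in P1 to P6. It stood out in P2 and P3, at 7.27 times the level of P4 in P2 (6.86 to 7.73) and 3.71 times that of P5 in P3 (3.54 to 3.89). *Pappa2*, its relative, which cuts IGFBP3 and IGFBP5, was at 0.0781, 3.06, 2.18, 0.114, 0.575 and 0.161 FPKM in P1 to P6, so that both proteases had the same pair of highest populations. *Stc2*, a stanniocalcin that inhibits both proteases, was at 1.46, 3.5, 2.39, 0.707, 0.762 and 0.102 FPKM. It was likewise highest in P2 and P3, whereas *Stc1*, the other stanniocalcin, was at 0.0528 FPKM in P1 and at 0.467 to 1.37 elsewhere.

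The serine proteases HTRA1 and HTRA3 carry a domain resembling that of IGF-binding proteins. *Htra1* was at 447, 402, 377, 267, 226 and 398 FPKM in P1 to P6. *Htra3* was at 483, 458, 321, 228, 116 and 63.4 FPKM, highest in P1 and lowest in P6. *Htra3* was 2.01 times as high in P2 as in P4 and 2.77 times as high in P3 as in P5. *Igfals*, the partner of IGFBP3 in the large complex of blood, did not exceed 1.73 FPKM.

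**Figure D5:**
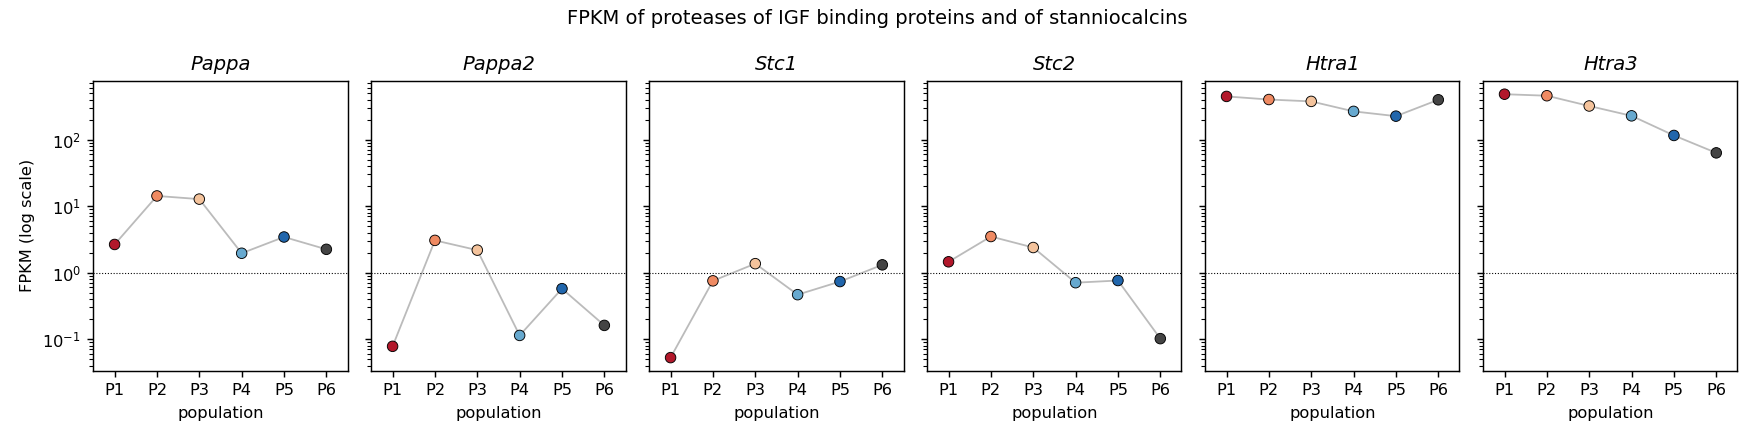
FPKM on a logarithmic axis of *Pappa*, *Pappa2*, *Stc1*, *Stc2*, *Htra1* and *Htra3* in P1 to P6, with 1 library per point and a dotted line at 1 FPKM. *Pappa* and *Pappa2* peak in P2 (14.3 and 3.06 FPKM), *Stc1* is lowest in P1 (0.0528) and *Htra3* runs from 483 in P1 down to 63.4 in P6.

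Among the receptor adaptors, which pass the signal on inside the cell, *Grb2*, *Grb10* and *Shc1* varied little. *Grb10*, an inhibitory adaptor, was at 47.5 to 52.1 FPKM, *Grb2* at 24.5 to 28.1 and *Shc1* at 43.5 to 69.1. *Irs2*, a docking protein of both the insulin and IGF1 receptors, was at 40.1, 46.3, 52.4, 29.4, 29.8 and 18.3 FPKM in P1 to P6, highest in the CD105+ populations. *Irs1*, its relative, was at 4.30 to 7.27 FPKM. *Grb14*, an inhibitor of the insulin receptor, was at 8.86, 2.23, 3.33, 3.66, 0.780 and 1.90 FPKM in P1 to P6, and P1 was 3.97 times as high as P2 (3.07 to 5.21). *Irs3* was at 4.90 FPKM in P6 and at 0.984 to 1.74 in the other populations.

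The growth hormone axis, which drives *Igf1* in liver and other tissues, reached 1 FPKM in all libraries for all 6 of its genes. *Ghr*, the growth hormone receptor, was at 25.9 to 34.2 FPKM, and its kinase *Jak2* was at 10.1 to 14.2. *Cish*, a target of STAT5, was at 7.47, 11.1, 12.7, 18.9, 23.8 and 22.1 FPKM in P1 to P6, lower in the CD105+ populations. *Socs2*, another STAT5 target and a feedback inhibitor, was at 22.1, 18.0, 19, 26.3, 28.9 and 29.6 FPKM. *Stat5a* was at 6.52 to 7.25 FPKM and *Stat5b* at 14.3 to 22.5. *Igf2bp2*, an RNA-binding protein of *Igf2* RNA, was at 7.98, 9.64, 8.05, 4.45, 3.18 and 3.98 FPKM, higher in the CD105+ populations, while *Igf2bp1* was listed at 0.

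Counted by the 2-fold rule, 1 of 23 of these pathway genes was higher in P1 than in P2 (*Grb14*), against 0.957% of all genes, and 4 were lower (*Igfals*, *Pappa*, *Pappa2* and *Stc2*), against 4.23%. None of 23 was higher or lower in P2 than in P3, against 1.09% and 2.56% of all genes. In P4, 1 of 18 was higher than in P5 (*Grb14*), against 3.93%, and none was lower, against 1.44%. Of 22 genes, 6 were higher in P2 than in P4, against 4.90% of all genes, and 6 were higher in P3 than in P5, against 7.33%. None was lower in either, against 7.63% and 6.29%. *Pappa*, *Pappa2*, *Stc2*, *Htra3* and *Igf2bp2* were in both sets, *Insrr*, the insulin receptor-related receptor, was in the first and *Grb14* in the second. The share of all genes in both sets was not computed. Against every other population, *Grb14* was higher (0.395% of all genes) and *Stc1* lower (1.82%) in P1, of 24 genes counted. *Irs3* was higher (6.25%) and *Igfals*, *Stc2* and *Insrr* were lower (4.63%) in P6. *Insrr* did not exceed 1.15 FPKM.

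The patterns of the 10 genes were finally compared over the 6 libraries, which share sort, preparation and cell mixtures, so that Pearson r of log2(FPKM + 0.1) is given as a description only. *Igf1* and *Igfbp7* had r = 0.97, and *Igfbp5* and *Igfbp6* had r = 0.94. Across these pairs r was -0.94 for *Igf1* with *Igfbp5*, -0.94 for *Igf1* with *Igfbp6*, -0.96 for *Igfbp7* with *Igfbp5* and -0.90 for *Igfbp7* with *Igfbp6*. The opposite order of the pairs follows the levels given above, with P1 to P3 at 1 end and P6 at the other.

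Among 1811 genes that reached 10 FPKM and an SD of 0.5, the pattern most like that of *Igf1* was that of *Crispld2*, at 42, 80.9, 61.6, 14.7, 13.6 and 6.90 FPKM in P1 to P6, followed by *Cacng7* and *Reck*. For *Igfbp7* the nearest were *Hsd11b1*, which encodes an enzyme that regenerates active glucocorticoid, *Vstm4* and *Kcne4*. *Igfbp3* was nearest to *Mgp*, which encodes matrix Gla protein, at 88.2, 355, 273, 423, 415 and 792 FPKM, then to *Col4a6* and *Ano1*. *Igfbp6* was nearest to *Cd200*, *Myo5b* and *Slpi*, and *Igfbp5* to *Mir1905*, *Gltp* and *Tmc6*. *Igfbp2* was nearest to *Trp53bp2*, *Hlx* and *Ccdc107*, and *Igf2r* to *Tgfb2*, *Wnk4* and *Slc9a3r2*. For *Igfbp4*, whose level hardly varied, the nearest were small RNAs (*Mir29c*, *Snora75* and *Snora21*). These likenesses rest on 6 points, and r was 0.89 or higher after rounding in all of them. The genes were picked for the highest r among 1811, so high values follow from the choice and do not show a link.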

How the data were processed

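RNA-seq libraries of 6 sorted omental populations were analyzed, 1 per population, so no test between populations was run. Per the study's methods, RNA was purified with the RNeasy Micro Kit, the NEBNext Ultra kit was used for library preparation, and single-end reads of 76 nt were sequenced on an Illumina instrument. The authors deposited FPKM values per gene symbol, and the submitters' processing notes name TopHat2 2.0.7, Cufflinks 2.1.1 and mm10. The annotation, the pooling of mice and the use of strand in counting are not given in the sources used here. The 10 genes and all lists were chosen with earlier results of these data known.

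Rows that repeated a symbol (495 per library) were summed, and each of the 10 genes stood on a symbol listed once. FPKM were used without further scaling, and summed to 384939 to 407807 per library. Between 11340 and 12043 genes reached 1 FPKM. Depth was estimated from the steps of values of up to 10 reads, on 3258 genes with a single GENCODE M21 transcript of at least 800 nt and a fragment length of 200 nt, and 55.1% to 60.3% of 323 to 554 values per library lay within 0.05 of a whole read. Since the other values did not, no count test was run, and the 95% Clopper-Pearson intervals of ratios rest on estimated reads. For these, the length of a gene was the median of its coding transcripts in GENCODE M21. The annotation behind the FPKM may use other lengths, which would change the reads and the width of the intervals. Log2 ratios were computed after adding 0.1 FPKM. Named genes were the 10 genes, the pathway lists at 1 FPKM or more (and some listed below it, given as such), the sort genes, the markers of 9 lists for cell types, and the 3 genes of highest r for each of the 10 genes reaching 10 FPKM. *Adgre1* was read under its older symbol *Emr1*. *Airn* and *H19* were named for their overlap with, or place beside, members. Promoter sequences are from RefSeq (GRCm38.p6) and gene positions from GENCODE M21 (GRCm38). Alternatives covered the scaling of libraries, the pseudocount, the minimum FPKM, repeated symbols, the fold and the populations compared. The depth estimate and the 2-fold calls were tested on simulated reads. These were drawn with the same gene lengths and fragment length, so whether the lengths hold in the real libraries was not tested. The counting intervals were not tested either. Scripts ran in Python 3.11.15 with pandas 2.3.3, numpy 2.4.6 and scipy 1.17.1, and plots were drawn in matplotlib 3.10.9.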

Additional observations from a re-analysis of the deposited data

Results flagged for a closer look

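*Igfbp2* differed in direction between the CD105 gates when populations with intermediate and low ALDH activity were set against each other. Among CD105+ cells the ratio of P2 to P3 was 0.392 (1.19 against 3.04 FPKM), and among CD105- cells the ratio of P4 to P5 was 1.43 (4.82 against 3.36 FPKM). The ratio of these ratios was 0.274. With 1 library per population, the difference was not tested.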

How the results depend on the processing

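No paired analysis was possible because there was a single library for every population. Of 87 counts of the 10 genes recomputed, 75 stayed within 1.5 times. Between P1 and P2 the count went from 2 to 1 with quantile scaling, a pseudocount of 1, a minimum of 5 FPKM or a fold of 3, leaving *Igfbp3*. Between P2 and P3 it went from 1 to 0 with that pseudocount, minimum or fold. Between P4 and P5 it went from 0 to 1 (*Igfbp5*) with a fold of 1.5, and between P2 and P4 from 5 to 3 with a fold of 3. For P1 against each other population it went from 2 to 1 with quantile scaling, a pseudocount of 1 or a fold of 3. Among the counts that stayed within 1.5 times, Gapdh scaling ended the call of *Igfbp6* between P2 and P4, quantile scaling that of *Igfbp7* between P3 and P5, and the minimum of 5 FPKM that of *Igfbp2* between P2 and P4. Of 490 log2 ratios recomputed, none past 2-fold was reversed, and 15 changed sign, from sizes of 0.35 at most. Gapdh scaling moved the median of all genes by between -0.35 in P5 and 0.25 in P1, median of ratios scaling by 0.13 and quantile scaling by 0.16 in P1. The summed binding proteins ran from 3490 to 4478 FPKM in P1 and from 6608 to 7307 in P6 over the scalings. Depth limits *Igf2* in all libraries and *Igfbp2* in P1.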
